A study of Mus musculus with 59 samples.

Results

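The genes described here are 10 effectors and targets of canonical Wnt signalling, chosen by name out of the 18088 genes in the table: Ctnnb1, Lef1, Tcf7l1, Tcf7l2, Axin2, Nkd1, Apcdd1, Dkk3, Ccnd1 and Lgr5. All 10 had a mean of at least 10 normalized counts and were among the 16546 genes tested. They were measured by RNA-seq in 59 libraries from the prefrontal cortex of C57BL/6J mice at postnatal day 25, after 3 weeks of drug exposure from postnatal day 3 to 24 through the milk of the dam. The design crossed genotype (wild type, WT, or heterozygous for Myt1l, HT), treatment (vehicle, lithium or fluoxetine) and sex, with 5 libraries in 11 of the 12 groups and 4 in WT females given fluoxetine. The labels give no dose, litter or dam, so p-values measure only the spread between these libraries, and they do not say which part of Myt1l the allele changes.

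In canonical Wnt signalling a secreted Wnt binds a Frizzled receptor and an Lrp co-receptor, which halts a cytoplasmic destruction complex of Axin, Apc, casein kinase and GSK3. Beta-catenin, the protein of Ctnnb1, then escapes degradation, enters the nucleus and activates genes together with Lef and Tcf factors. Lithium is a known inhibitor of GSK3. In the brain the pathway is best known in the endothelium of the blood-brain barrier, where Lef1, Axin2, Nkd1 and Apcdd1 are among its targets, in the oligodendrocyte lineage and, for Tcf7l2, in the thalamus. Because a bulk library mixes all cells of the dissected tissue, fewer cells of a type and less RNA per cell cannot be told apart.

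Promoter windows are shown for the beta-catenin gene and for Lef1, which were both lower under lithium, and for Axin2, the most widely used Wnt target, which did not pass the test. Each is the 250 bases before the most upstream RefSeq transcript start, on the plus strand of GRCm38.p6, from RefSeq. The gene positions given with each member come from GENCODE on GRCm38 and can start elsewhere: the GENCODE gene of Ctnnb1 begins at 120929216, upstream of its window. Capitals mark the core of the Lef and Tcf site, CTTTG or its reverse complement CAAAG.
Lef1, chr3:131110047-131110296: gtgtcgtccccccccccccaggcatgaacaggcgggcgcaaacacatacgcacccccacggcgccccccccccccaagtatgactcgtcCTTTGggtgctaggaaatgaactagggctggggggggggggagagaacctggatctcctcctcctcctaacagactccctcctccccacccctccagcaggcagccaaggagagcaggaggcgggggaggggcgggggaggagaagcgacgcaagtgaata
Ctnnb1, chr9:120933150-120933399: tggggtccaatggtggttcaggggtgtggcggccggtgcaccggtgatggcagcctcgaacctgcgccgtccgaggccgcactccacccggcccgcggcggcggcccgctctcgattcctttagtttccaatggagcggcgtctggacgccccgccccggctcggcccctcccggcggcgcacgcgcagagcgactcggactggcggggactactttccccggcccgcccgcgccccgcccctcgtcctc
Axin2, chr11:108920099-108920348: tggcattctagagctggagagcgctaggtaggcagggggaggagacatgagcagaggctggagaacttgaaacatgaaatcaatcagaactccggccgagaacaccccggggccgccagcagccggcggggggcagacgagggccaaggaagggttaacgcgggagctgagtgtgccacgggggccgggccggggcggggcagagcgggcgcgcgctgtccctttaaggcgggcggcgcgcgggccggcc
The core was found 1 time in the Lef1 window, starting 161 bases before the transcript start, and 0 times in those of Ctnnb1 and Axin2. Of the 32851 windows of this length in the table, 48.58% held the core. The longer forms CTTTGAA and CTTTGAT, searched on both strands, were in 0 of the 11 windows of the 6 members with a window (Lef1, Ctnnb1, Axin2, Nkd1, Tcf7l1 and Tcf7l2) and in 7.48% of all windows. These are matches of letters in a short window and say nothing of binding.

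Library facts that touch the comparisons were as follows. Library depth was 25088446 to 35858365 recovered reads. The cortical excitatory marker Slc17a7 was present in all 59 libraries, at 25586 to 64983 normalized counts. Whole-gene Myt1l was at 6736 to 7612 in WT vehicle and at 6189 to 8802 in HT vehicle, so it was not lower in HT. This count does not check the genotype, and HT and WT stand for the labelled genotypes. The HT vehicle libraries female 3 and male 3 stood apart, with the summed level of 12 striatal markers up to 13675 against a median of 6658 in that group, and they were also high in oligodendrocyte, endothelial, pericyte, astrocyte and microglial markers. All 14 libraries of HT fluoxetine and WT fluoxetine females held 10203 to 20887 normalized counts of mt-Atp6, against 36054 to 70728 in the other 45, which include every vehicle and lithium library.

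Per kilobase of exon, Ctnnb1 RNA was the most abundant of the members in WT vehicle cortex. On that scale Ctnnb1 was at 3818 ± 233 normalized counts per kilobase (SD, n = 10) and Dkk3, a secreted Dickkopf family protein found in cortical neurons, at 2152 ± 323. Ccnd1, which encodes cyclin D1, was at 311 ± 29.6, and the ranges of these 3 genes did not overlap. Axin2, a scaffold of the destruction complex, followed at 139 ± 8.48, Apcdd1, a membrane inhibitor of Wnt, at 136 ± 8.45 and Nkd1, an inhibitor that binds Dishevelled, at 116 ± 14.2. The ranges of Axin2 and Apcdd1, and of Apcdd1 and Nkd1, overlapped, so their order is not resolved. The 4 least abundant members were Tcf7l1 at 25.2 ± 3.00, Lgr5, a receptor for R-spondins, at 19.1 ± 13.0, Lef1 at 18.6 ± 2.64 and Tcf7l2 at 15.02 ± 1.99, each overlapping the next. Over all 59 libraries the highest value was 1.36 times the lowest for Ctnnb1, 1.41 times for Axin2 and 53.8 times for Lgr5.

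Under lithium Lef1 and Ctnnb1, the partners that form the transcriptional complex, were lower, and no member was called higher. Averaged over genotypes and sexes, 2 of 10 members passed the test, both lower, beside 8.82% of all genes tested called in either direction, 4.73% higher and 4.09% lower. The median log2 difference was -0.11 over the 10 members and 9e-04 over all genes tested, and 7 of the 10 differences were negative. Both edgeR and DESeq2 on recovered reads also called 2 members. In the same comparison 4 members had an unadjusted p under 0.05: Lef1, Ctnnb1, Tcf7l2 and Nkd1.

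Lef1 (ENSMUSG00000027985, chromosome 3, 131110471 to 131224356, plus strand, GRCm38) encodes a high mobility group factor that binds DNA and recruits beta-catenin. In WT females it was at 155, 160, 169, 182 and 195 normalized counts under vehicle and at 115, 138, 143, 154 and 173 under lithium. In WT males it was at 139, 139, 140, 155 and 203 under vehicle and at 103, 104, 113, 138 and 155 under lithium. Both lithium groups lay lower on the whole, with overlap, and WT vehicle male 5 stood above its 4 group mates. In HT females the values were 159, 160, 180, 219 and 252 under vehicle and 98.5, 105, 132, 144 and 196 under lithium. In HT males they were 151, 163, 205, 244 and 255 under vehicle and 73.8, 114, 125, 139 and 150 under lithium. HT males were the 1 stratum of 4 in which the groups did not overlap, by a margin of under 1 count, and the highest values of the HT vehicle groups were female 3 and male 3. No library held more than 255 normalized counts of Lef1.

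The averaged log2 difference of Lef1 was -0.47 (SE 0.085, 95% interval -0.65 to -0.30, limma adjusted p = 0.000189), a level of 0.720 times vehicle, and 17 of 20 lithium libraries lay below the vehicle mean of their own genotype and sex. By stratum the difference was -0.26 in WT females, -0.34 in WT males, -0.54 in HT females and -0.76 in HT males. The call held in all 11 other settings, with a difference between -0.48 and -0.43, and with each of the 40 libraries left out. Without the 5 libraries highest in striatal markers, HT vehicle female 3 and male 3 among them, the difference was -0.43 (limma adjusted p = 0.000733).

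Ctnnb1 (ENSMUSG00000006932, chromosome 9, 120929216 to 120960507, plus strand) encodes beta-catenin, which carries the signal and is also part of cadherin junctions. In WT mice its lowest, median and highest values were 18074, 19876 and 22222 normalized counts under vehicle (n = 10) and 16861, 17629 and 18809 under lithium (n = 10). In HT mice they were 16370, 19522 and 21380 under vehicle (n = 10) and 16357, 17476 and 19027 under lithium (n = 10). The groups overlapped in every stratum, yet all 20 lithium libraries were below the vehicle mean of their genotype and sex. HT vehicle female 3 held the lowest vehicle value and lay within the lithium range.

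The averaged log2 difference of Ctnnb1 was -0.15 (SE 0.029, 95% interval -0.21 to -0.094, limma adjusted p = 0.000355), a level of 0.901 times vehicle. This was a smaller change than that of Lef1 in a gene that varied by 6.11% (coefficient of variation, WT vehicle, n = 10). The strata gave -0.14 in WT females, -0.18 in WT males, -0.16 in HT females and -0.13 in HT males. The call held in all 12 other settings and with each of the 40 libraries left out, and without the 5 libraries highest in striatal markers the difference was -0.17 (limma adjusted p = 2.69e-05).

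**Figure D1:**
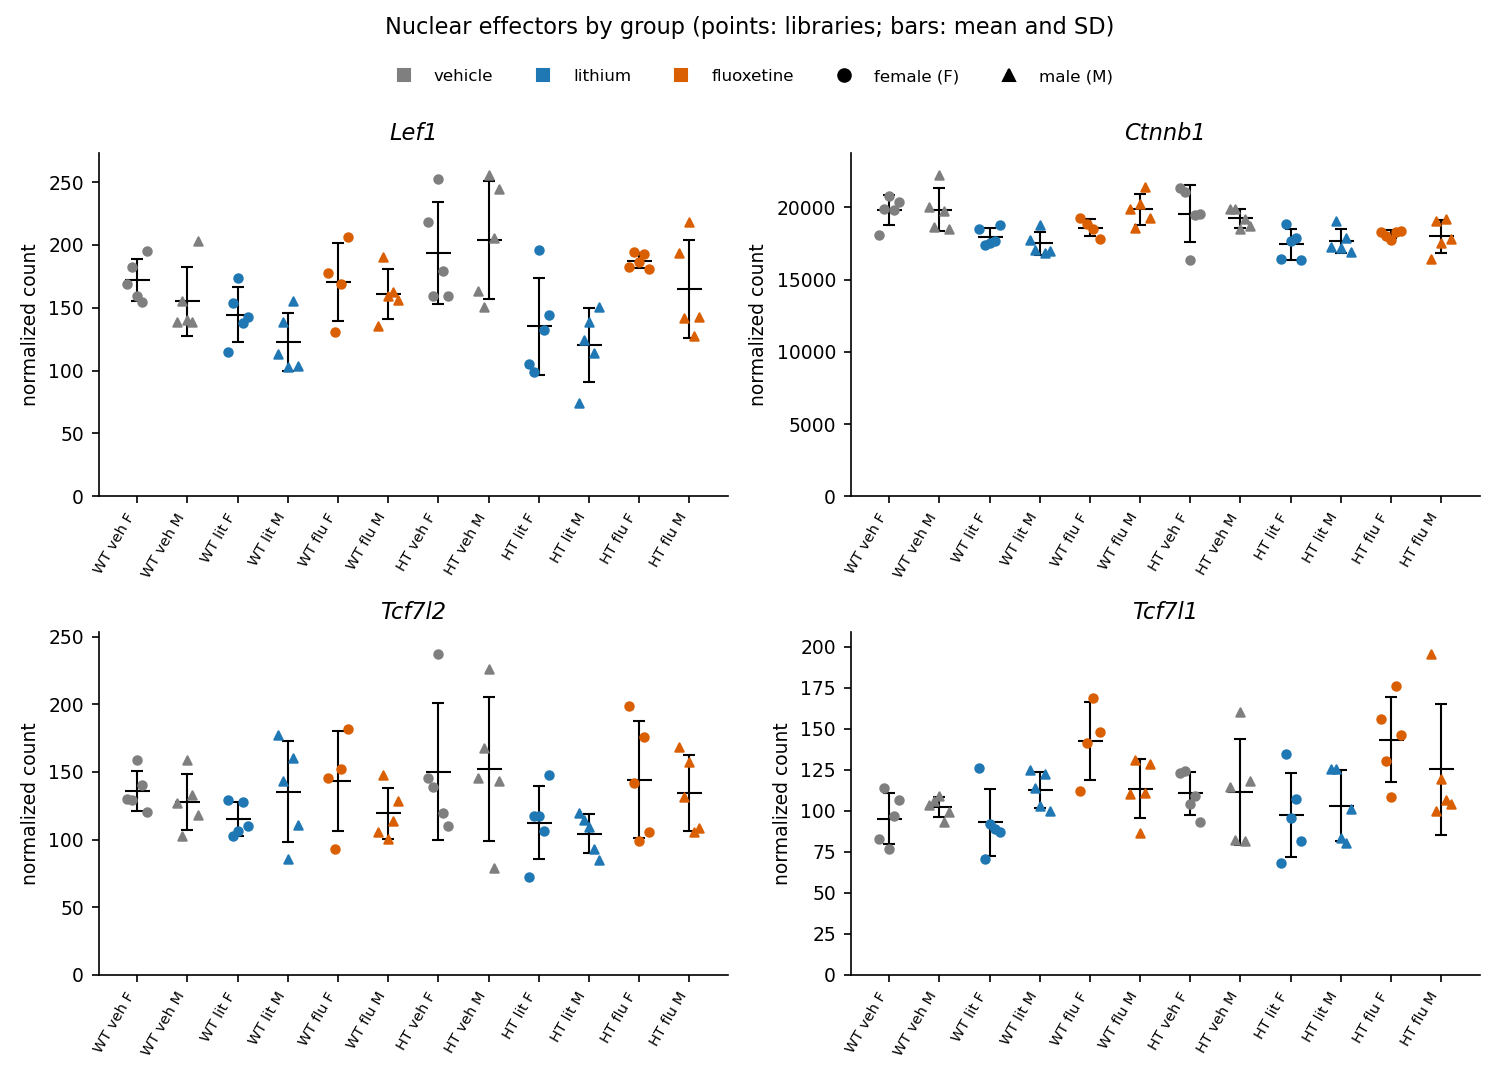
Normalized counts (vertical axes, starting at 0) of Lef1, Ctnnb1, Tcf7l2 and Tcf7l1 in the 12 groups of genotype, treatment (veh, vehicle; lit, lithium; flu, fluoxetine) and sex (F, M). Points are libraries, and bars are the mean and SD of 5 libraries, or 4 in WT fluoxetine females; the blue lithium points of Lef1 and Ctnnb1 lie lower than the grey vehicle points, and in HT males those of Lef1 do not overlap.

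The other DNA-binding factors did not pass the test for lithium. Tcf7l2 (ENSMUSG00000024985, chromosome 19, 55741820 to 55933654, plus strand), a Tcf factor known from the thalamus and from oligodendrocytes, had lowest, median and highest values of 78.8, 136 and 237 under vehicle and 72.6, 113 and 177 under lithium (n = 20 each). The ranges overlapped, and the 2 highest values, 237 and 226, were HT vehicle female 3 and male 3. Its averaged log2 difference was -0.26 (95% interval -0.48 to -0.052, limma adjusted p = 0.108). Without HT vehicle male 4, at 78.8 the lowest library of its group, the difference was -0.32 (limma adjusted p = 0.0346), and without the 10 libraries highest in olfactory bulb markers it was -0.29 (limma adjusted p = 0.0413). Without the libraries highest in striatal markers it was -0.18 (limma adjusted p = 0.265). Tcf7l1 (ENSMUSG00000055799, chromosome 6, 72626378 to 72789254, minus strand), which mostly acts as a repressor, ran from 76.5 to 160 under vehicle and from 68.2 to 135 under lithium, with a log2 difference of -0.052 (95% interval -0.23 to 0.12).

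Among the inhibitors and targets, Axin2 (ENSMUSG00000000142, chromosome 11, 108920349 to 108950783, plus strand) was at 662, 761 and 882 normalized counts under vehicle and at 716, 768 and 922 under lithium (lowest, median and highest, n = 20 each). The groups overlapped and 8 of the 20 lithium libraries lay below the vehicle mean of their own genotype and sex. Its log2 difference was 0.036 (95% interval -0.034 to 0.11, limma adjusted p = 0.578). Ccnd1 (ENSMUSG00000070348, chromosome 7, 144929931 to 144939925, minus strand) differed by 0.069 (95% interval -0.033 to 0.17) and Dkk3 (ENSMUSG00000030772, chromosome 7, 112116017 to 112159057, minus strand) by 0.071 (95% interval -0.12 to 0.26). Apcdd1 (ENSMUSG00000071847, chromosome 18) differed by -0.071 (95% interval -0.20 to 0.055). Lgr5 (ENSMUSG00000020140, chromosome 10, 115450311 to 115587780, minus strand) differed by -0.14, and its interval of -0.83 to 0.54 was the widest of the 10. These 5 genes did not pass the test, and the direction of none is resolved by its interval.

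Nkd1 (ENSMUSG00000031661, chromosome 8, 88521354 to 88594884, plus strand) was lower under lithium in HT mice. In HT females it was at 617, 632, 683, 701 and 806 normalized counts under vehicle and at 486, 487, 573, 604 and 693 under lithium. In HT males it was at 497, 497, 611, 630 and 918 under vehicle and at 408, 492, 501, 513 and 522 under lithium. The groups overlapped in both sexes, and the highest vehicle values were again female 3 and male 3. In WT mice the lowest, median and highest values were 395, 536 and 617 under vehicle and 425, 549 and 604 under lithium (n = 10 each), which cover each other.

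**Figure D2:**
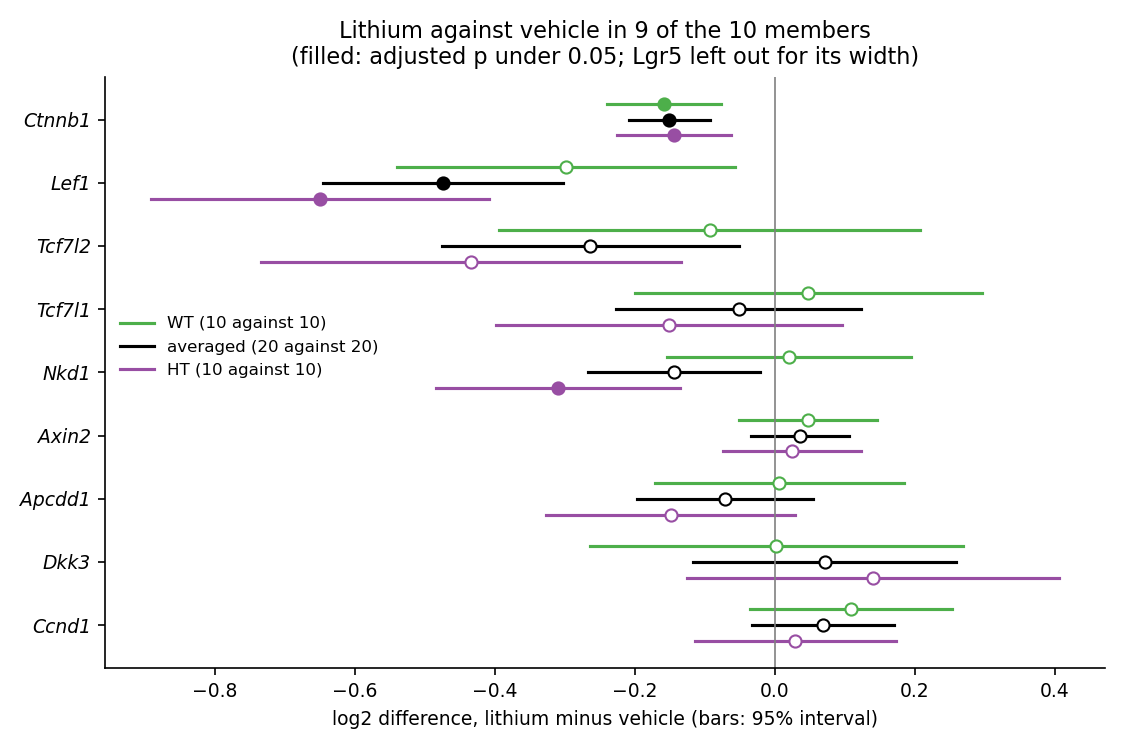
Log2 difference between lithium and vehicle (horizontal axis) with its 95% interval in WT (green), averaged over genotypes (black) and in HT (purple) for 9 of the 10 members; Lgr5, whose averaged interval runs from -0.83 to 0.54, is left out for scale. Filled points passed the test: Ctnnb1 in all 3 comparisons, Lef1 in the averaged comparison and HT, and Nkd1 in HT.

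By genotype, 1 of 10 members passed in WT and 3 of 10 in HT, all lower, and the difference between the genotypes passed for none. In WT the member was Ctnnb1 (log2 difference -0.16, SE 0.041, limma adjusted p = 0.0272), beside 1.61% of all genes called, 0.991% higher and 0.616% lower. Lef1 differed by -0.30 (95% interval -0.54 to -0.057, limma adjusted p = 0.219). The median of the 10 members was 0.013 in WT, against 2e-04 over all genes. The WT call of Ctnnb1 was lost without WT lithium female 3 or male 4, or WT vehicle female 4, male 1 or male 3 (limma adjusted p from 0.0522 to 0.0693), and under quantile normalization (limma adjusted p = 0.0777).

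In HT the members were Lef1 (-0.65, SE 0.121, limma adjusted p = 0.000944), Nkd1 (-0.31, SE 0.087, limma adjusted p = 0.0379) and Ctnnb1 (-0.14, SE 0.041, limma adjusted p = 0.0392), beside 2.84% of all genes called, 1.27% higher and 1.57% lower. Lef1 and Ctnnb1 were below the mean of the 10 HT vehicle libraries in 10 of 10 lithium libraries and Nkd1 in 9 of 10. Against the vehicle mean of their own sex, Lef1 and Nkd1 were each lower in 4 of 5 HT lithium females and 5 of 5 males. Ctnnb1 was lower in 5 of 5 of each sex. The median over the members was -0.15 in HT, against 0.0046 over all genes. Tcf7l2 differed by -0.43 (95% interval -0.73 to -0.13, limma adjusted p = 0.1), and DESeq2 on recovered reads called it (adjusted p = 0.0344), as did limma without HT vehicle male 4 (-0.54, adjusted p = 0.0252). The other 10 of 11 settings left it uncalled, and over the 11 the difference ran from -0.49 to -0.27. Without HT vehicle female 3 the difference was -0.35, and with single libraries left out limma adjusted p reached 0.282.

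Lef1 kept its HT call with each library left out, when only the compared groups were fitted (limma adjusted p = 0.0346) and without the libraries highest in striatal markers (-0.56, limma adjusted p = 0.0147). Nkd1 did not: without those libraries it differed by -0.21 (limma adjusted p = 0.23), and when only the compared groups were fitted its adjusted p was 0.104. Its call was also lost without HT lithium female 1, 2 or 4, lithium male 1 or 2, vehicle female 1 or 3, or vehicle male 3 or 5, with limma adjusted p from 0.0509 to 0.133. The HT call of Ctnnb1 was lost when only the compared groups were fitted (limma adjusted p = 0.122). It was also lost without HT lithium female 1 or 5, lithium male 1, 3, 4 or 5, vehicle female 1 or 2, or vehicle male 1, 2 or 3, with limma adjusted p from 0.0504 to 0.0926.

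The test of the difference between HT and WT in the response to lithium called 0 of 16546 genes and 0 members by limma, edgeR and DESeq2 (0% of genes; 829 genes at an unadjusted limma p under 0.05). The members with an unadjusted p under 0.05 were 2: Nkd1 (interaction -0.33, 95% interval -0.58 to -0.084, limma adjusted p = 0.89) and Lef1 (-0.35, 95% interval -0.69 to -0.0092, limma adjusted p = 0.89). The same test between males and females called 0 genes and 0 members by the 3 tools (0%; 507 genes and 0 members at an unadjusted limma p under 0.05). For Lef1 the male minus female difference in response was -0.16, with a 95% interval of -0.50 to 0.19.

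Cell type markers moved in the same comparison as Lef1 and Ctnnb1. Of 10 brain endothelium markers, 4 were called lower in the averaged lithium comparison, with a list median of -0.17: Tek (-0.29, limma adjusted p = 0.000244), Kdr (-0.26, adjusted p = 0.00674), Slco1a4 (-0.19, adjusted p = 0.00519) and Cdh5 (-0.22, adjusted p = 0.042). In HT 4 of 10 were called lower (median -0.21) and in WT 0 of 10 by limma, edgeR and DESeq2 (median -0.057, 3 at an unadjusted limma p under 0.05). Their summed level ran from 11074 to 12737 in WT vehicle, 9883 to 14034 in WT lithium, 11145 to 17233 in HT vehicle and 9996 to 15170 in HT lithium, and none was at 0. Of 7 markers of newly formed and myelinating oligodendrocytes 2 were called lower in the averaged comparison (Enpp6 and Mog, list median -0.45), while edgeR and DESeq2 each called 7 of 7. In WT alone 0 of 7 were called by limma, edgeR and DESeq2 (1 at an unadjusted limma p under 0.05), and in HT alone 0 by limma, 1 by edgeR and 2 by DESeq2 (7 at an unadjusted limma p under 0.05). Their summed level ran from 38079 to 99664 in WT vehicle, 35683 to 78134 in WT lithium, 55646 to 206455 in HT vehicle and 18894 to 80749 in HT lithium, and none was at 0. The medians of these sums were 72675, 59270, 73568 and 67659 in the same order. The highest mean standardized levels of this list were in HT vehicle female 3 and male 3 (3.20 and 2.87 SD units). The lowest was in HT lithium female 1 (-3.08). Of 5 microglia markers 1 was called lower in the averaged comparison (P2ry12, list median -0.11) and 2 in HT (median -0.21). Of 6 astrocyte markers 1 was called lower in each of these comparisons (Aqp4 in the averaged one, medians -0.11 and -0.21). Of 6 markers of pericytes and smooth muscle limma called 0, edgeR 1 and DESeq2 2 in the averaged comparison (2 at an unadjusted limma p under 0.05), and limma called 1 lower in HT (median -0.21). Of 6 markers of oligodendrocyte precursors 1 was called lower in the averaged comparison (Pdgfra, list median -0.12), and 0 in HT by limma, edgeR and DESeq2 (4 at an unadjusted limma p under 0.05, median -0.25). In WT 0 markers of these 4 lists were called by limma, edgeR and DESeq2, with 1 pericyte marker and 0 of the others at an unadjusted limma p under 0.05. The summed microglia level ran from 6668 to 7630 in WT vehicle, 6236 to 7784 in WT lithium, 6540 to 10054 in HT vehicle and 5925 to 8097 in HT lithium. The astrocyte sum ran from 116021 to 134425, 107619 to 135958, 119118 to 182454 and 99780 to 144759 in the same order of groups. The pericyte sum ran from 5030 to 6602, 4543 to 6558, 5855 to 9411 and 4865 to 7411, and the precursor sum from 6069 to 8370, 5833 to 8150, 6247 to 11492 and 4551 to 8433. All 4 sums reached their highest value in HT vehicle, the ranges of the groups overlapped, and no marker was at 0. In each of these 4 lists HT vehicle female 3 and male 3 held the 2 highest mean standardized levels of all libraries. In SD units they were at 2.40 and 2.76 for microglia, 1.92 and 2.10 for astrocytes, 1.92 and 2.53 for pericytes and 2.17 and 2.39 for precursors. The same held for endothelium, at 2.49 and 2.52. Marker tests without these 2 libraries are not given. In the averaged comparison 8 of 10 endothelium and 7 of 7 oligodendrocyte differences were below 0. So were 3 of 5 for microglia, 5 of 6 for astrocytes, 4 of 6 for pericytes and 6 of 6 for precursors. Below 0 were also 8 of 12 striatal and 5 of 7 meningeal markers, with 0 called by limma, edgeR and DESeq2 (0 at an unadjusted limma p under 0.05). By contrast, 0 of 9 olfactory bulb and 0 of 2 choroid plexus and ependyma markers were below 0. Of excitatory neuron markers 2 of 8 were below 0 (1 called lower). For inhibitory neurons it was 0 of 6, with 0 called by limma, edgeR and DESeq2 (1 at an unadjusted limma p under 0.05). Of 9 thalamus and habenula markers 5 were below 0 and 1 was called higher. The part of cell types in the results for Lef1, Nkd1 and Ctnnb1 was not tested.

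Genes elsewhere in the pathway were read from lists by role, 115 genes of which 105 were in the table and 100 were tested. In the averaged lithium comparison 3 were called higher and 8 lower, which is 11 of 100 beside 8.82% of all genes, and their median was -0.0021. In WT 0 were higher and 1 lower, and in HT 1 higher and 3 lower.

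Of 19 ligands, R-spondins and proteins that load or release Wnts, 1 was called higher and 1 lower, with a median of 0.0085. Wnt10a, a Wnt ligand, was higher by 0.36 (SE 0.081, limma adjusted p = 0.00256), the call held in all 11 other settings and with each library left out, and it was called in HT (0.47, adjusted p = 0.0173). Ndp, the Norrin ligand of Frizzled 4, was lower by a log2 difference of -0.20 (limma adjusted p = 0.0476), a call lost with 25 of 40 single libraries left out, with adjusted p up to 0.0857. Of 22 receptors and co-receptors 3 were called lower and 0 higher: Fzd4, the Norrin receptor (-0.21, limma adjusted p = 0.0218), its co-activator Tspan12 (-0.16, adjusted p = 0.0232) and Fzd6 (-0.18, adjusted p = 0.0412). Norrin, Frizzled 4 and Tspan12 act together in the signalling that maintains vessels of the retina and brain. All 4 of Ndp, Fzd4, Tspan12 and Fzd6 missed the threshold without the libraries highest in striatal markers, with limma adjusted p from 0.0539 to 0.103. The call of Fzd6 was also lost with 22 of 40 single libraries left out (adjusted p up to 0.0789). Among the most abundant genes of these lists, Wls, which carries Wnts to the cell surface, differed by -0.041 and Porcn, which adds their lipid, by 0.015, and the receptor genes Fzd3 and Lrp6 by -0.034 and -0.020; none of the 4 was called.

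Of 12 secreted inhibitors tested, 1 was called lower and 0 higher, with a median of -0.058. It was Notum, a lipase that removes the lipid of Wnt proteins (-0.26, limma adjusted p = 0.0484), and the call was lost with 25 of 40 single libraries left out, with adjusted p up to 0.0914. The most abundant inhibitors, Frzb and Kremen1, were not called (-0.049 and 0.081). Of 22 genes of the cytoplasmic relay and the destruction complex, 2 were called higher and 3 lower. Csnk1d, a casein kinase, was higher by 0.079 (limma adjusted p = 0.0218) and Btrc, which marks beta-catenin for degradation, by 0.11 (adjusted p = 0.0247). The scaffolds Apc2 (-0.20, limma adjusted p = 0.0402) and Apc (-0.14, adjusted p = 0.0446) were lower, as was Cxxc4, an inhibitor that binds Dishevelled (-0.16, adjusted p = 0.00443). Among these 5 the calls of Cxxc4 and Csnk1d held in all 12 other settings and with each library left out. The calls of Apc and Apc2 were lost with 26 and 16 of 40 single libraries left out (adjusted p up to 0.0848 and 0.075), and those of Apc and Btrc without the libraries highest in striatal markers (adjusted p = 0.138 and 0.0594). In HT Apc2 differed by -0.34 (limma adjusted p = 0.0315). That call was lost with 5 of 20 single libraries left out: HT lithium female 1, male 2 and male 4, and HT vehicle female 1 and male 3 (adjusted p from 0.0503 to 0.088). It was also lost with only the compared groups fitted (limma adjusted p = 0.174) and without the libraries highest in striatal markers (adjusted p = 0.0828). In WT the 1 gene called was Cxxc4 (-0.21, limma adjusted p = 0.0244), a call lost with 6 of 20 single libraries left out, with adjusted p up to 0.0628.

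Gsk3a and Gsk3b, the kinases that lithium inhibits as proteins, differed in RNA by 0.047 (95% interval -0.044 to 0.14) and -0.013 (95% interval -0.089 to 0.063), and Axin1 by -0.035 (95% interval -0.11 to 0.036). None of these 3 passed the test, nor did the abundant casein kinase gene Csnk1a1 (0.042). Of 15 nuclear partners 0 were called in the averaged comparison by limma, edgeR and DESeq2 (0 at an unadjusted limma p under 0.05, median 0.021), with Aes at 0.11 and Ctbp1 at 0.047. Of 10 further reported targets limma called 0, edgeR 1 and DESeq2 1 (1 at an unadjusted limma p under 0.05, median -0.018), with Nrcam at -0.0067 and Ccnd2, cyclin D2, at 0.054. Tcf7, the fourth Lef and Tcf family gene, differed by 0.041 (95% interval -0.17 to 0.25). In HT the further target called lower was Cldn5, a tight junction gene that is also on the endothelial list (-0.36, limma adjusted p = 0.0394); without the libraries highest in striatal markers it differed by -0.27 (adjusted p = 0.195), and the call was lost with 9 of 20 single libraries left out, with adjusted p up to 0.12.

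**Figure D3:**
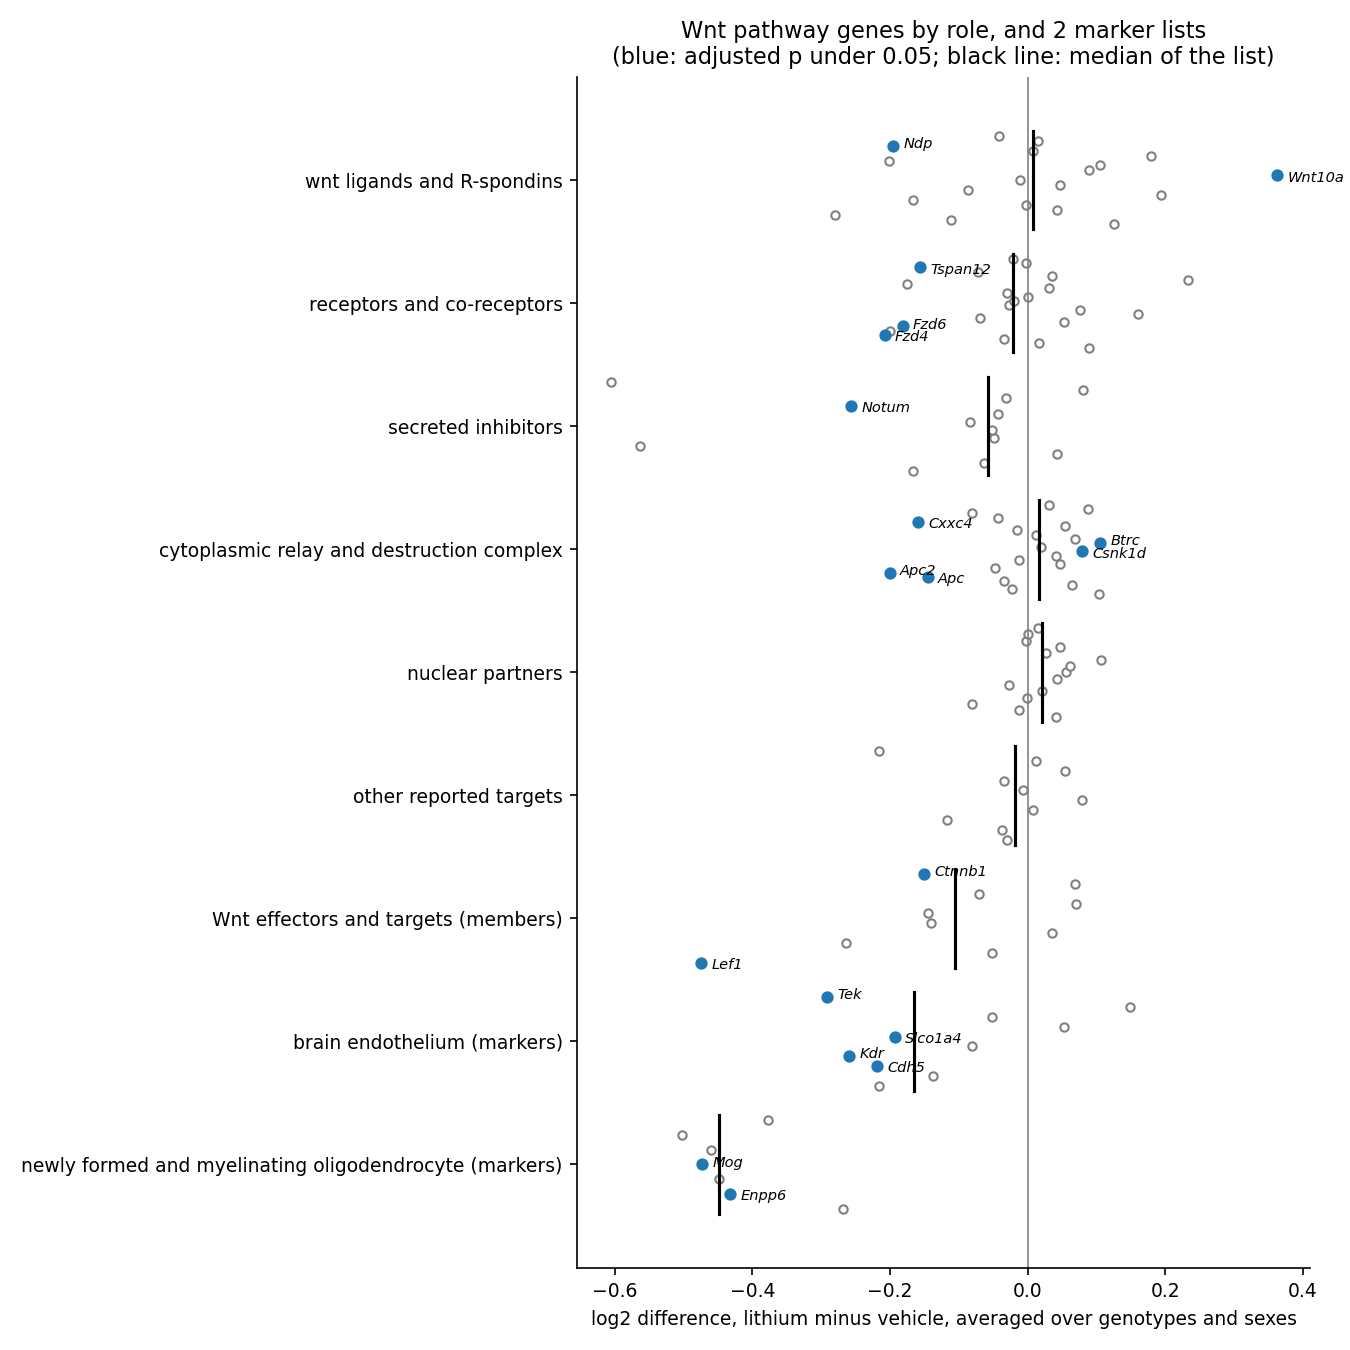
Averaged log2 difference between lithium and vehicle (horizontal axis) of each tested gene in 6 role lists of the Wnt pathway, the 10 members and 2 lists of cell type markers (vertical axis; the height within a list has no meaning). Blue points with names passed the test and black lines are list medians, which lie between -0.058 and 0.021 in the 6 role lists and at -0.45 for oligodendrocyte markers.

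Under fluoxetine the largest difference among the members was in Lgr5. In WT females Lgr5 was at 82.7, 119, 143, 146 and 328 normalized counts under vehicle and at 544, 706, 1087 and 1515 under fluoxetine. In WT males it was at 58.6, 128, 140, 378 and 438 under vehicle and at 226, 271, 309, 721 and 1124 under fluoxetine. The groups of females did not overlap and those of males did. In HT mice the lowest, median and highest values were 39.5, 180 and 397 under vehicle and 73.8, 440 and 2124 under fluoxetine (n = 10 each), with overlap.

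In WT mice 2 of 10 members were called under fluoxetine, beside 14.9% of all genes, 8.81% higher and 6.08% lower: Lgr5 (1.94, SE 0.497, limma adjusted p = 0.00819) and Tcf7l1 (0.36, SE 0.127, limma adjusted p = 0.0479), both higher. The call of Tcf7l1 was lost with 14 of 19 single libraries left out (adjusted p up to 0.109). In HT mice 3 of 10 were called, beside 29.2% of all genes, 14.6% in each direction: Lgr5 higher (1.51, SE 0.482, limma adjusted p = 0.0158), and Dkk3 (-0.41, SE 0.133, adjusted p = 0.0169) and Ccnd1 (-0.19, SE 0.072, adjusted p = 0.0371) lower. These shares are near the background of each comparison. Without HT fluoxetine female 4 all 3 HT calls were lost (limma adjusted p of 0.0553 for Lgr5, 0.0599 for Dkk3 and 0.106 for Ccnd1), and without HT fluoxetine male 1 those of Dkk3 and Ccnd1 were (adjusted p of 0.0709 and 0.0938). Ccnd1 also missed the threshold without HT fluoxetine male 3, HT vehicle female 1, 2 or 3, or HT vehicle male 2 or 3, with adjusted p from 0.0504 to 0.113. Lithium and fluoxetine were compared with the same vehicle libraries, so no overlap between their results is given.

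Olfactory bulb markers moved with Lgr5 from library to library. Of the 9 bulb markers tested, 9 were called higher in the WT and 9 in the HT fluoxetine comparison, with medians of 2.96 and 2.72. Their summed level ran from 223 to 4641 in WT vehicle, 1586 to 20341 in WT fluoxetine, 270 to 2604 in HT vehicle and 238 to 26798 in HT fluoxetine, and none was at 0. The 10 libraries highest in Lgr5 were also the 10 highest in the bulb list, 9 of them given fluoxetine and the other WT lithium male 1. Leaving these 10 out leaves 4 of 9 WT fluoxetine libraries, 1 of them from a female, and 6 of 10 HT fluoxetine libraries. Because they are the 10 highest in Lgr5, a smaller Lgr5 difference without them follows from the choice, and nothing is read from it: Lgr5 then differed by 1.24 in WT (limma adjusted p = 0.443) and 0.50 in HT (adjusted p = 0.518). Without them 0 of 10 members were called in either comparison. Dkk3 then differed by -0.055 in HT, Ccnd1 by -0.069 in HT and Tcf7l1 by 0.12 in WT. The omitted libraries also include those with the lowest Dkk3, down to 2605, and with the highest Tcf7l1, up to 196. Nothing is read from these smaller differences either. In the same omission, with fewer libraries in the fit, all genes called fell in number from 2464 to 15 in WT and from 4833 to 1607 in HT.

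Markers of other cell types were also called in the fluoxetine comparisons, in both directions. Of 8 markers of cortical excitatory neurons 1 was called lower in WT and 3 in HT, with 7 of 8 differences below 0 and a median of -0.26 in both. Their summed level ran from 63126 to 74796 in WT vehicle, 42251 to 74625 in WT fluoxetine, 60200 to 77792 in HT vehicle and 32232 to 71784 in HT fluoxetine. Of 5 microglia markers 3 were called lower in WT (median -0.24) and 4 in HT (median -0.37), with summed levels of 5454 to 6980 in WT and 5539 to 7116 in HT fluoxetine. Of 10 endothelium markers 1 was called lower in WT (median -0.068) and 5 in HT (median -0.21), with summed levels of 10038 to 12424 and 10128 to 12979. Of 6 astrocyte markers 1 was called higher and 1 lower in WT, and 3 lower in HT (median -0.18), with summed levels of 88901 to 123380 and 85739 to 129681. Of 6 inhibitory neuron markers 3 were called higher and 2 lower in WT and likewise in HT (medians -0.0057 and -0.0033). Of 9 thalamus and habenula markers 2 were called higher and 1 lower in WT, and 4 higher and 3 lower in HT. Of 12 striatal markers 2 were called higher in WT and 1 in HT, and of 7 meningeal markers 1 and 2. No marker of these lists was at 0, and their part in the results for Dkk3 and the other members was not tested.

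**Figure D4:**
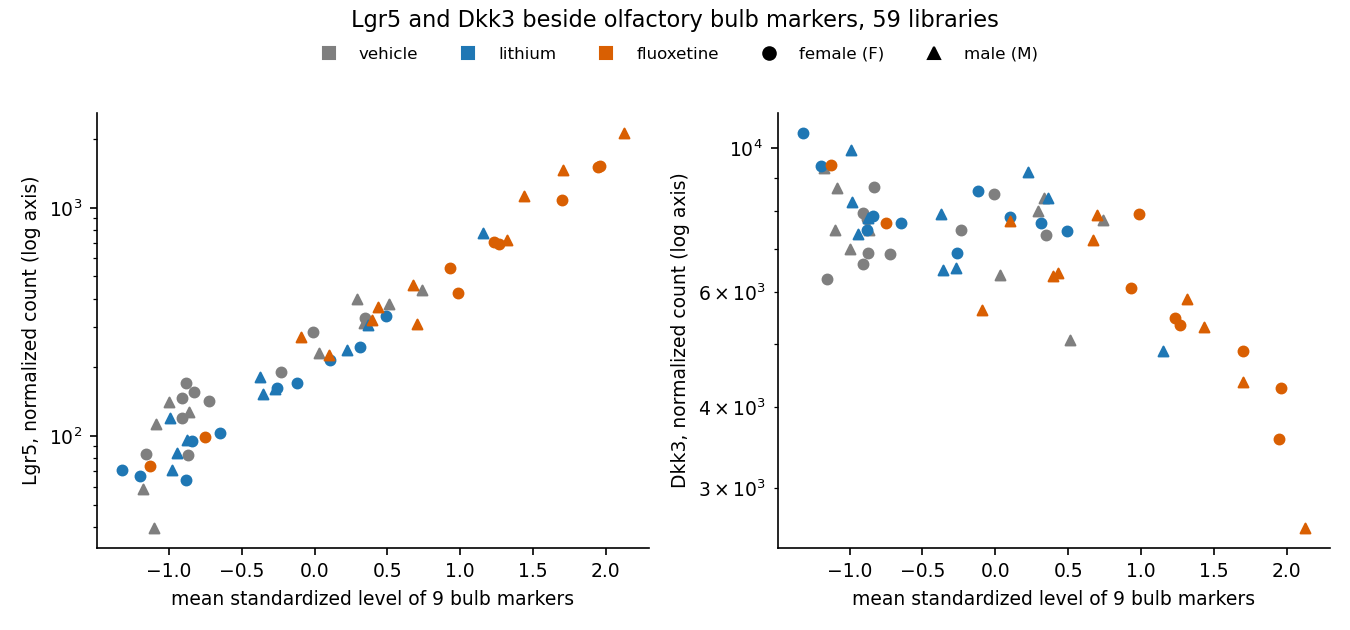
Normalized counts of Lgr5 and Dkk3 (vertical log axes) against the mean standardized level of 9 olfactory bulb markers (horizontal axis, in SD units) in the 59 libraries, coloured by treatment. Lgr5 is highest, up to 2124, and Dkk3 lowest, down to 2605, in the libraries with the highest bulb level.

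The 14 fluoxetine libraries with low mt-Atp6 include every HT fluoxetine library and all 4 WT fluoxetine females. For HT mice and WT females the drug and this difference between libraries therefore cannot be told apart. WT fluoxetine males, which lay with the other libraries in mt-Atp6, give the comparison within 1 set: 0 of 16546 genes and 0 members were called by limma, edgeR and DESeq2 (0%; 800 genes and 0 members at an unadjusted limma p under 0.05). There Lgr5 differed by 1.29 (95% interval -0.085 to 2.66) and the other members by between -0.17 and 0.17. WT fluoxetine males 2 and 5, at 1124 and 721 of Lgr5, are among the 10 libraries highest in bulb markers. The other males of this group held 226 to 309. The 9 bulb markers differed by a median of 2.12 there, with 0 below 0. Limma, edgeR and DESeq2 called 0 of them (5 at an unadjusted limma p under 0.05). Of the other pathway genes, 16 of 100 were called higher and 5 lower in WT, beside 8.81% and 6.08% of all genes, and 25 higher and 17 lower in HT, beside 14.6% in each direction. Those with the smallest p in WT were Dvl3, a Dishevelled gene (0.20, limma adjusted p = 0.00248), Lgr6, a relative of Lgr5 (1.75, adjusted p = 0.0038), Wnt5a (0.69, adjusted p = 0.00494) and Bcl9l, a partner of beta-catenin (0.25, adjusted p = 0.00622). In HT they were Tspan12 (-0.33, limma adjusted p = 0.000172), Dvl3 (0.20, adjusted p = 0.000424), the Wnt5a receptor Ror2 (0.84, adjusted p = 0.000821) and Pygo2 (-0.18, adjusted p = 0.000836).

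The genotypes did not differ in any member by the test under vehicle: limma called 0 of 16546 genes and 0 members (0%; 1618 genes and 3 members at an unadjusted p under 0.05), edgeR called 0 genes and 0 members, and DESeq2 4 genes and 0 members. Nkd1 was higher by 0.30 in HT vehicle (95% interval 0.13 to 0.48, limma adjusted p = 0.303), Lef1 by 0.26 (95% interval 0.022 to 0.51, adjusted p = 0.468) and Apcdd1 by 0.18 (95% interval 0.0051 to 0.36, adjusted p = 0.493), and HT vehicle female 3 and male 3 are in that group. Under lithium limma called 1 gene (0.00604%) and 0 members (641 genes and 0 members at an unadjusted p under 0.05), edgeR 1 gene and DESeq2 3 genes, both with 0 members, and the 10 members differed by between -0.46 and 0.25. Between males and females, over vehicle and lithium, limma called 19 genes (0.115%, of which 0.0423% higher and 0.0725% lower in males) and 0 members (510 genes and 1 member, Nkd1, at an unadjusted p under 0.05), edgeR 19 genes and DESeq2 20, both with 0 members, with the largest member difference in Lgr5 (0.25, 95% interval -0.44 to 0.94).

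**Figure D5:**
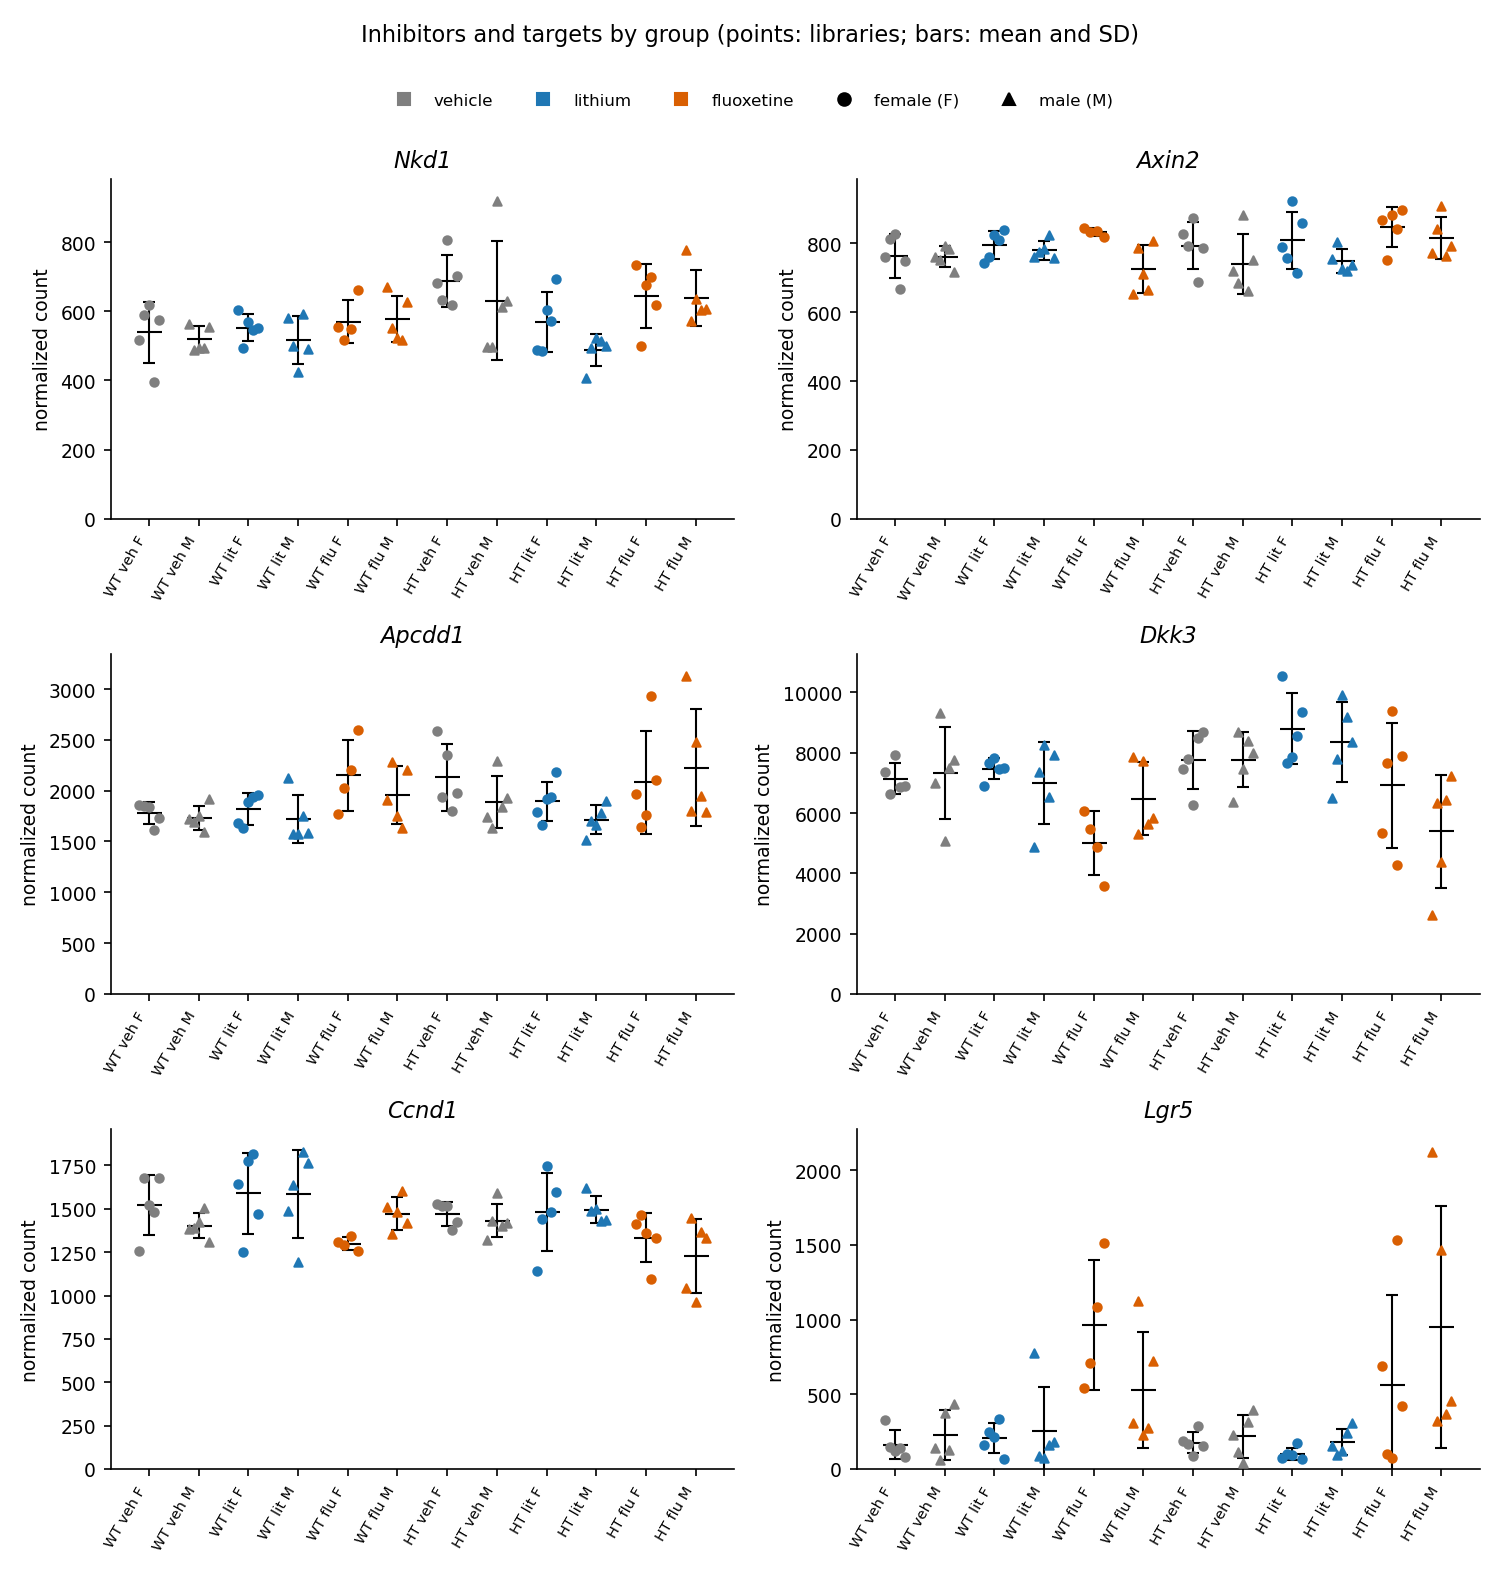
Normalized counts (vertical axes, starting at 0) of the 6 inhibitors and targets in the 12 groups, drawn as for the nuclear effectors: points are libraries and bars are the mean and SD. Axin2 stays between 654 and 922 in all libraries, while Lgr5 reaches 2124 and Dkk3 falls to 2605 in fluoxetine libraries.

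The genes nearest to each member across the 59 libraries were found after removal of the group means. The values that follow are Pearson correlations of log2 levels within groups, chosen as the 3 highest of 14262 genes for each member; libraries share depth and the dissected mixture of cells, and no test is given. Lef1 and Nkd1 shared the same nearest gene, Vwa1 (r = 0.70 and 0.79), a basement membrane gene. Apcdd1 was nearest to Nid1 (r = 0.90) and Jam2 (r = 0.90), also genes of basement membrane and cell junctions. Next came Abcc6 and Ccdc8 for Lef1 (r = 0.65 and 0.64), Igfbp7 and Slc9a3r1 for Nkd1 (r = 0.76 each) and Sash1 for Apcdd1 (r = 0.89). For the other members only the nearest gene is named. Lgr5 was nearest to Gng4 (r = 0.97), Dkk3 to Ephb6 (r = 0.94), Tcf7l2 to Stxbp3 (r = 0.80), Tcf7l1 to Snx18 (r = 0.74), Axin2 to Clk3 (r = 0.84), Ccnd1 to Specc1 (r = 0.77) and Ctnnb1 to Icam5 (r = 0.79). Among the members the highest correlation was between Nkd1 and Apcdd1 (r = 0.64), and Lef1 went with Nkd1 (r = 0.53) and against Ctnnb1 (r = -0.43). Dkk3 went against Tcf7l1 (r = -0.67), Tcf7l2 (r = -0.64), Apcdd1 (r = -0.63) and Lgr5 (r = -0.60).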

How the data were processed

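Reads of poly(A) stranded libraries (TruSeq, per the labels' protocols) were processed by the authors. The submitters' processing notes name Salmon 0.11.2, DESeq2 1.19.11, R 3.6.0 and the GRCm38 build, without their roles. The deposited table holds a normalized signal per gene that behaves as reads scaled by 1 factor per library (0.85 to 1.203): 100% of values in every library were whole multiples of a step within 0.01, so whole reads were recovered. Use of strand in counting is not given in the sources used here. Of 18088 identifiers 18077 matched a symbol.

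Log2(normalized count + 1) of 16546 genes with a mean of at least 10 was fitted with limma 3.58.1 (trended, robust) in R 4.3.3 as 12 group means over 59 libraries. From this fit 11 contrasts were drawn, with Benjamini-Hochberg adjustment over all genes tested at 0.05, and a gene past it is called. A log2 difference on this scale understates the change of low genes. The script was tested on simulated data with 200 of 16546 genes changed under lithium. In the averaged lithium comparison it recovered 71% of genes changed by 1.3 times, 80% by 1.5 and 98% by 2, with 7 false calls. With no gene changed it made 0 false calls. Changes smaller than 1.3 times were not simulated. The recovered reads were also tested with edgeR 4.0.16 and DESeq2 1.42.0. Named were all members, the pathway genes called for lithium, the 2 most abundant of each role, Gsk3a, Gsk3b, Axin1 and Tcf7, and up to 4 called pathway genes by p in other contrasts. Members and lists were chosen with earlier results of these data known. Of the marker lists, 2 genes are not reported here.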

Additional observations from a re-analysis of the deposited data

Results flagged for a closer look

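Of 120 pairs of member and group, 6 held a library whose gap to its nearest group mate, as a share of the range of its group of 5, passed Dixon's 95% critical value; chance alone gives about 1 such group in 20. The HT vehicle female 3 library, which is high in striatal and glial markers, held 237 normalized counts of Tcf7l2, against 110 to 145 in the other 4. The HT fluoxetine male 1 library, the highest of all in bulb markers, held 196 of Tcf7l1, against 99.9 to 120 in its group mates. WT lithium male 1, the only lithium library among the 10 highest in bulb markers, held 776 of Lgr5, against 70.9 to 180. WT vehicle female 1 held 328 of Lgr5, against 82.7 to 146. WT vehicle male 5 held 203 of Lef1, against 139 to 155, and the averaged lithium call of Lef1 held without it. HT lithium male 1 held 408 of Nkd1, against 492 to 522, and without it the HT lithium difference of Nkd1 was -0.28 (limma adjusted p = 0.0811). No interaction of lithium with genotype or sex was called for a member.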

How the results depend on the processing

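Of 51 results for named genes, 26 kept their direction and side of the threshold in all alternatives other than single omissions. Over these 599 alternatives 37 lost a call, 2 gained one and 7 changed sign, all of these in WT lithium differences near 0. The changes of sign were Dkk3 under quantile normalization (-0.0029), edgeR (-0.0015) and DESeq2 (-0.0014), Apcdd1 under quantile normalization (-0.0016) and without the libraries high in bulb markers (-0.033), and Lgr5 (-0.17) and Nkd1 (-0.0017) without those libraries. The omission of the 10 libraries high in bulb markers was chosen after the data were seen. None of 120 group means moved by 1 SD when replaced by the median. A mean and a median can never differ by more than 1 SD, so nothing is read from this. With single libraries left out, lithium differences near 0 also changed sign: Axin2 in HT ranged from -0.0013 to 0.0565, Ccnd1 in HT from -0.0026 to 0.074, and in WT Tcf7l1 from -0.0102 to 0.0931, Lgr5 from -0.167 to 0.2917, Nkd1 from -0.0333 to 0.0545, Dkk3 from -0.0614 to 0.0639 and Apcdd1 from -0.033 to 0.0252.

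Counts of members called changed as follows. For averaged lithium a filter at a mean of 200, which removes Lef1, Tcf7l1 and Tcf7l2, left 1. For lithium in WT quantile normalization left 0, and for lithium in HT fitting only the compared groups left 1. For fluoxetine in WT the count was 1 with no filter, with a filter at 200, with quantile normalization and with the replicate block, 4 with only the compared groups fitted and 0 without the libraries high in bulb markers. For fluoxetine in HT it was 5 with a filter at 200, 6 without the libraries high in striatal markers, and 0 with only the compared groups fitted and without the libraries high in bulb markers. With single libraries left out it ranged from 2 to 3 for averaged lithium, 0 to 1 for lithium in WT, 1 to 4 for lithium in HT, 1 to 4 for fluoxetine in WT and 0 to 5 for fluoxetine in HT.

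Counts of all genes called changed more. Fitting only the compared groups gave 617 for lithium in WT, 188 for lithium in HT, 2244 for fluoxetine in HT, 3 for fluoxetine in WT males and 2 for genotype under lithium. DESeq2 gave 400 for lithium in WT, 718 for lithium in HT, 4 for genotype under vehicle and 3 under lithium. Without the libraries high in striatal markers the counts were 443 for lithium in WT, 114 for lithium in HT and 3 for genotype under lithium. Without those high in bulb markers they were 2193 for averaged lithium, 446 for lithium in WT, 851 for lithium in HT, 15 and 1607 for fluoxetine in WT and HT, and 7 and 3 for genotype under vehicle and lithium. A filter at 200 gave 1 for genotype under vehicle and 12 for sex, quantile normalization 2 for genotype under vehicle and 2 under lithium, and the replicate block 3 for genotype under vehicle. With single libraries left out the ranges were 1203 to 1640 for averaged lithium, 111 (without WT vehicle male 5) to 315 for lithium in WT, 177 (without HT vehicle female 3) to 721 (without HT lithium female 3) for lithium in HT, 1086 (without WT fluoxetine female 4) to 2843 for fluoxetine in WT, 0 to 3 for genotype under vehicle and 0 to 3 under lithium. The cause of these changes was not tested beyond the samples and genes each setting removes.

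Of 319 pairs with the same replicate number in different groups 75 correlated above 0.1, with a median of 0.0186. For pairs with other numbers it was 282 of 1276, with a median of -0.0055. The libraries high in striatal markers were HT vehicle female 3 and male 3, HT fluoxetine female 2 and male 2, and WT fluoxetine female 2. Whether replicate numbers pair libraries within a drug was not tested. With the replicate block no lithium count of members or genes moved by over 1.5 times. Quantile normalization moved the median of all genes by at most 0.0165 in any contrast.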
